A study of Mus musculus with 6 samples.

Results

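The mouse genes that encode collagen α-chains were examined in single-cell transcriptomes of pancreatic tumours, to describe which chains were carried by cancer cells, by stromal cells and by immune cells, and whether they differed with MLKL overexpression. All gene symbols made of Col, a type number, the letter a and a chain number were taken, which gave 44 of 32285 genes. MLKL is the pore-forming executioner of necroptosis, a regulated form of lytic cell death. KPC cells, a mouse pancreatic cancer line, were transduced with a lentivirus carrying MLKL (KPC-OE-MLKL) or with the vector alone (KPC-OE-Vector) and injected into the pancreas of C57BL/6 mice aged 6 to 8 weeks. Tumours were taken 4 weeks after injection, digested with collagenase, and profiled as whole-tumour suspensions with a 10x Genomics 3′ assay, 1 tumour per library. Both groups therefore share the parental line and the C57BL/6 host. Counts of 1 library labelled OE-Vector (replicate 1) and 3 libraries labelled OE-MLKL (replicates 1, 2 and 3) were analysed, and the matrices of OE-Vector 2 and 3 were not analysed here. With 1 OE-Vector library, a difference between the labelled groups cannot be told apart from a difference between tumours.

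After filtering, 74545 cells remained, between 15382 and 23063 per library, from libraries of 150591289 to 169978362 UMIs (unique molecular identifiers, each standing for 1 captured transcript). Cancer cells were the 21091 cells with at least 1 UMI of Gm49504, a lincRNA gene at chr16:3346350-3348370 on the plus strand of GRCm38. Of these cells, 17461 fell in clusters that carried cancer-cell markers, and these are called the cancer cells in cancer-like clusters. Gm49504 was seen in 78.3% of the cells of those clusters. Some of them also raised fibroblast markers. The clusters of 4972 and 4440 cells raised 4 of 10, beside 5 and 4 of 14 cancer-cell markers. The cluster of 2330 cells raised 3 of 10, beside 7 of 14. Stromal cells (646) and leukocytes (44334) were cells without a Gm49504 UMI in clusters named from fixed markers, with the collagen genes left out of the clustering. The samples are labelled as pancreatic cancer cells, but 59.5% of the cells were leukocytes and 28.3% cancer cells by these definitions. Median depth was 12470 to 26974 UMIs in a cancer cell and 902 to 1881 in a leukocyte, and Gm49504 was seen in a median of 1.72% of the cells of leukocyte-like clusters. Clusters set apart by hand as mixed (4947 cells) were kept out of the stromal and leukocyte classes, while their Gm49504-positive cells (2610) stayed in the cancer class. Some clusters kept in a named class also raised at least 3 markers of a second type. Across libraries, 605 cell barcodes occurred more than once, in 1215 cells. OE-Vector 1 and OE-MLKL 3 resembled each other, as did OE-MLKL 1 and 2, and the largest cancer-like clusters each came mostly from a single library. Mlkl itself (chr8:111311797-111338177) stood at 16.1 CPM (UMIs per 1000000 UMIs of the same cells) in the cancer cells of OE-Vector 1 and at 8.41, 12.7 and 19 in OE-MLKL 1, 2 and 3, so the OE-MLKL label did not go with more Mlkl. Whether transcripts of the construct end in sequence that a 3′ library counts as Mlkl was not tested.

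Collagens are the main structural proteins of the extracellular matrix, built from α-chains that wind into a triple helix and can be identical or come from different genes. Fibrillar collagens give tissue its tensile strength and type IV collagen forms the mesh of basement membranes. Other types decorate fibrils, form beaded filaments around cells, anchor epithelia or span the plasma membrane. In pancreatic ductal adenocarcinoma a dense collagen-rich stroma, laid down mostly by fibroblasts, is a hallmark of the tissue. The 44 genes comprised 11 fibrillar chains, 6 chains of type IV, 3 of the short-chain network types, 6 of type VI, 9 of the fibril-associated types (FACIT), 1 anchoring fibril chain, 4 transmembrane chains, 2 multiplexins and 2 others. They lay on 15 chromosomes of the GENCODE annotation for GRCm38, and 18 were overlapped by a gene on the other strand.

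Collagen transcripts were most concentrated in stromal cells, but most of the collagen UMIs recovered came from cancer cells. All 44 genes together made up 2.35%, 1.05%, 1.76% and 2.65% of the UMIs of stromal cells in OE-Vector 1, OE-MLKL 1, OE-MLKL 2 and OE-MLKL 3, the order used for every set of 4 values below. The same sum was 0.228%, 0.118%, 0.147% and 0.225% of the UMIs of cancer cells. In leukocytes it was 0.0246%, 0.0153%, 0.0202% and 0.032%. The 3 classes did not overlap, and within each class OE-MLKL 1 was the lowest library. Barcodes of at most 100 UMIs, which hold RNA free in the suspension rather than a cell, carried 0.199%, 0.138%, 0.152% and 0.159% collagen UMIs, close to the cancer cells and far above the leukocytes. Of the 919924 collagen UMIs in cells, cancer cells held 71.8%, stromal cells 15.1% and leukocytes 3.27%, so that 646 stromal cells of 74545 cells held more than the 44334 leukocytes did. With the libraries summed, collagens were 0.172% of the UMIs of cancer cells and 0.161% of those of all cells. The cancer cells' share of collagen UMIs was thus near their share of all UMIs. A large share of a gene's UMIs in cancer cells does not by itself mean a raised level there.

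**Figure D1:**
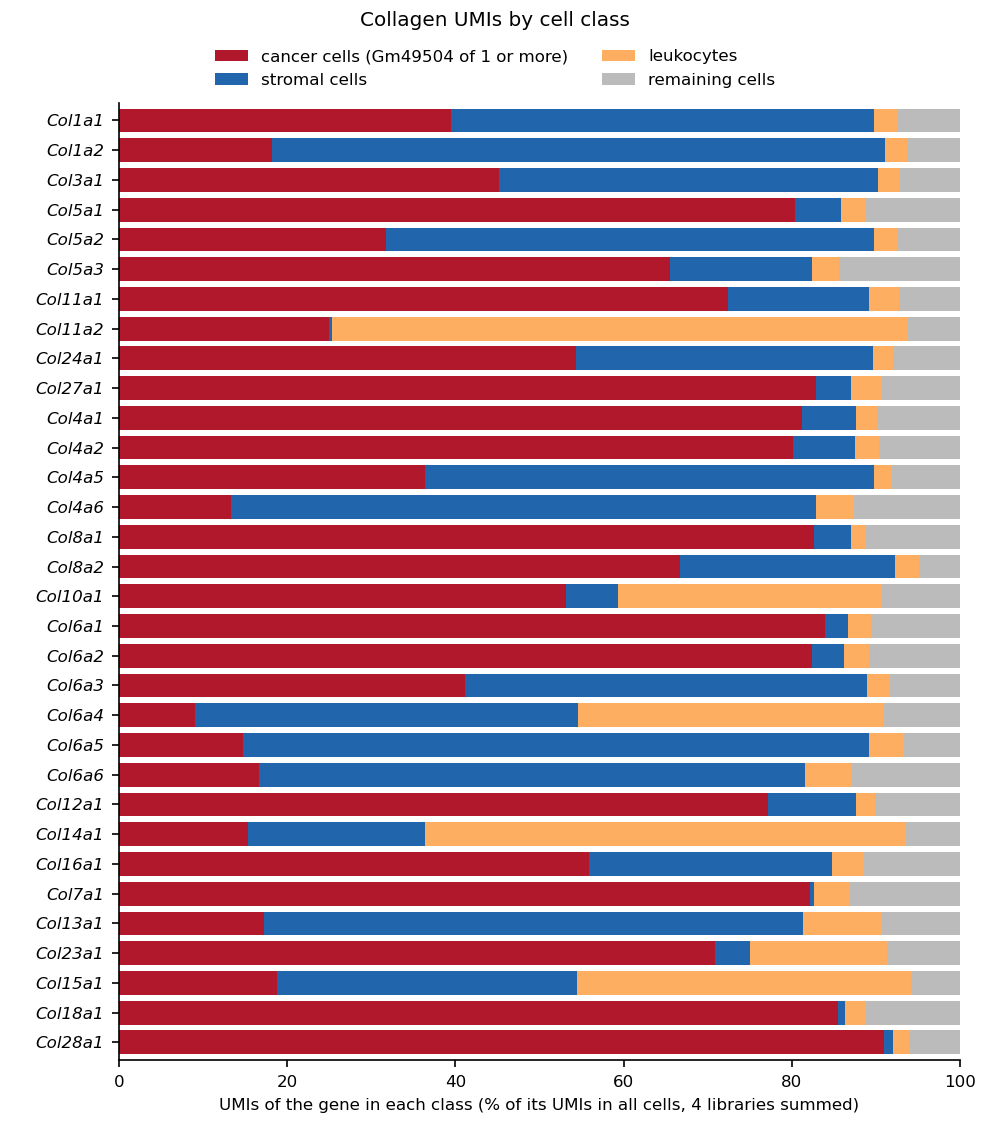
Each bar splits the UMIs of 1 collagen gene, summed over the 4 libraries, into the percent carried by cancer cells, stromal cells, leukocytes and all remaining cells, for the 32 genes that reached 10 CPM in some class of some library. Bars run from chains held mainly by cancer cells (Col28a1 90.9%, Col18a1 85.5%) to chains held mainly by stromal cells (Col6a5 74.5%, Col1a2 72.8%), with Col11a2 and Col14a1 mostly in leukocytes. Cancer cells also held most of the UMIs of all genes in each library.

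Of the 44 genes, 43 had a UMI in at least 1 cell and 32 reached a level of 10 CPM in some class and library. The other 12 had 0 to 979 UMIs in all cells. Col9a1, a chain of the cartilage FACIT type IX, had none, and Col2a1, the main fibrillar chain of cartilage, had 14. Cancer cells and leukocytes of the same tumours were compared with edgeR's quasi-likelihood test with the library as a block, on UMIs summed per class. Among the 29 collagens tested, 22 were higher in cancer cells, where 39.8% of all 15979 genes were called higher. Another 4 were lower in cancer cells (Col11a2, Col14a1, Col15a1 and Col20a1), where 36.4% of all genes were called lower. The median difference was 2.63 on the log2 scale over the 29 collagens and 0.06 over all genes. Against stromal cells, 3 of 34 collagens were higher in cancer cells (Col4a4, Col7a1 and Col18a1), beside 24.9% of 15449 genes. Stromal cells had 25 of the 34 at a higher level, beside 22.6% of all genes, with a median difference of −3.11 over the collagens and 0.12 over all genes. Chains near 0 in cancer cells, such as Col13a1, could pass the filter on low counts through stromal cells alone. With no such filter, 26 of 42 collagens were lower in cancer cells, beside 3691 of 24107 genes. The median was then −1.98 over the collagens and 0.40 over all genes. The 3 classes were defined from the same UMI counts, in part by clustering, and the p-values measure the spread between the 4 libraries only.

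The levels in cells were set beside those of free RNA. For the 25 collagens with at least 30 UMIs in the barcodes of at most 100 UMIs, the level in leukocytes, with the libraries summed, was a median of 13.2% of the level in free RNA, and 20 of the 25 stood under 20%. Col18a1 stood at 12.2%, Col1a1 at 12% and Col3a1 at 12.9% in leukocytes. Most collagens therefore stood in leukocytes in about the proportions they had in free RNA. Only Col14a1 (192%, 299%, 312% and 353%), Col15a1 (183%, 126%, 154% and 163%) and Col11a2 (167%, 294%, 227% and 159.7%) exceeded the free RNA in leukocytes in the sum, and they did so in each of the 4 libraries. In T or NK cell-like, B cell-like and dendritic cell-like cells no collagen of the 25 did so in the sum. In cancer cells 11 of the 25 exceeded it in the sum and 6 in every library, and in stromal cells 21 in the sum and 20 in every library.

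**Figure D2:**
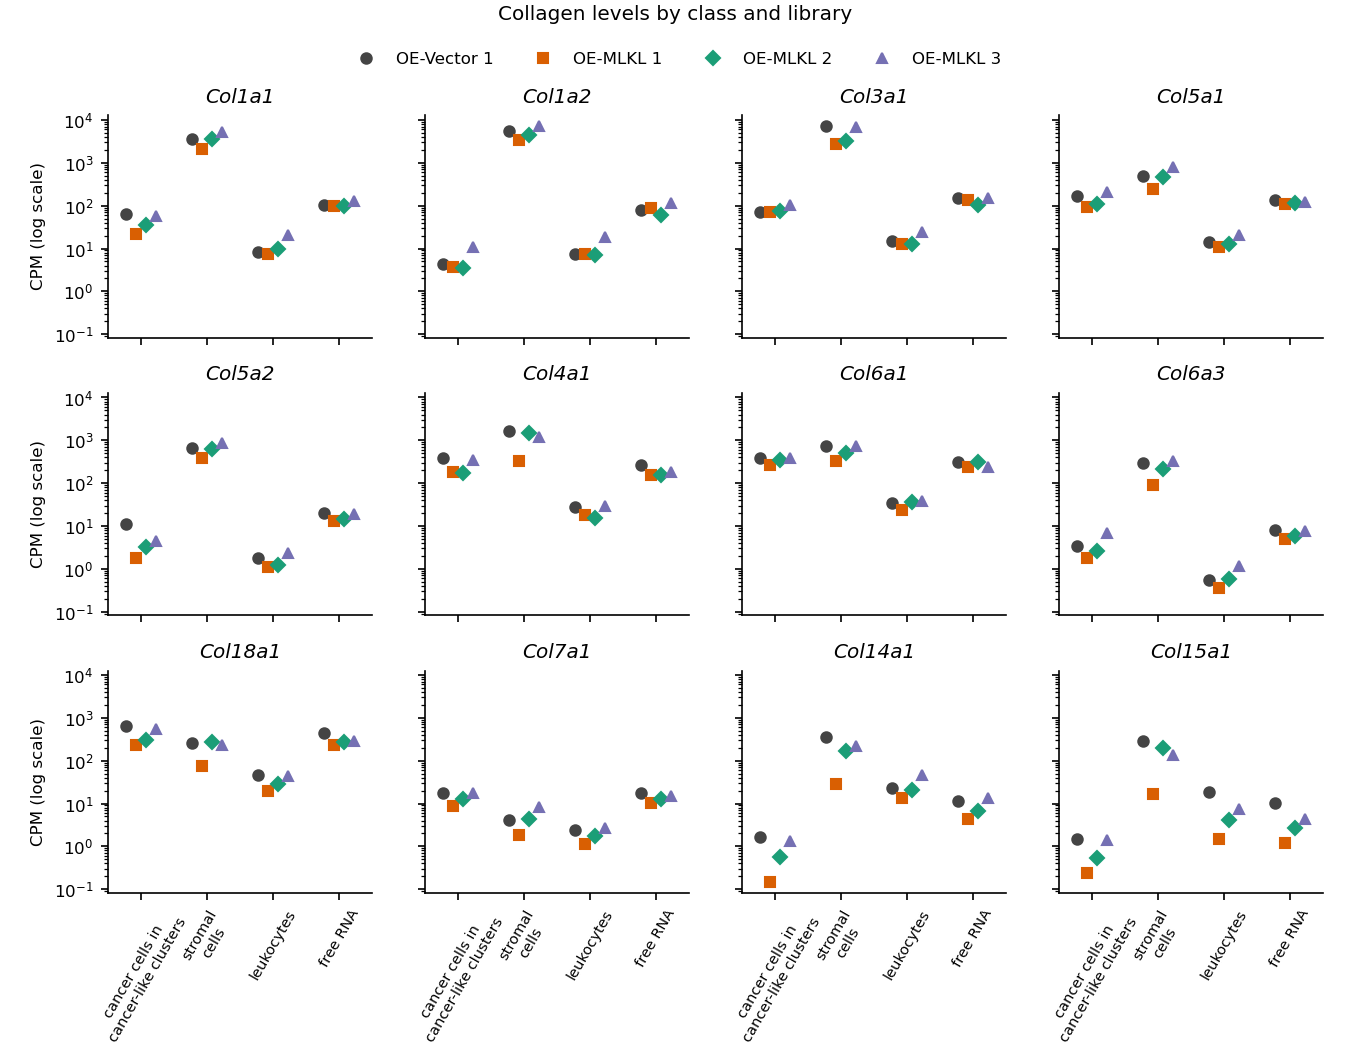
Levels of 12 collagens in CPM (log axis) in cancer cells of cancer-like clusters, stromal cells, leukocytes and free RNA, with 1 point per library. Col18a1 and Col6a1 lay within a few fold of each other in cancer and stromal cells, while Col1a2 was at 3.46 to 11.1 CPM in cancer cells and 3463 to 7389 CPM in stromal cells.

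Among the fibrillar chains, those of type I collagen stood out by their distance between stromal and cancer cells. Col1a1 (chr11:94936224-94953042, plus strand) encodes the α1 chain of type I collagen, the commonest collagen of scar and tumour stroma, which assembles with the α2 chain from Col1a2 (chr6:4504814-4541544, plus strand). Col1a1 was at 3685, 2066, 3641 and 5296 CPM in stromal cells. Cancer cells had 77.7, 29, 43 and 78.2 CPM of Col1a1 and leukocytes 8.14, 7.47, 9.58 and 21.2. Every library placed stromal cells far above cancer cells and cancer cells above leukocytes. All differences below are on the log2 scale with their SE, as cancer minus the other class, and adjusted p-values come from edgeR's quasi-likelihood test, adjusted by Benjamini and Hochberg's method for all genes of the fit. For Col1a1 the difference from stromal cells was −6.05 ± 0.19 (edgeR adjusted p = 2.52e-08) and that from leukocytes 2.17 ± 0.23 (edgeR adjusted p = 7.69e-05).

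Col1a2 was at 5443, 3463, 4559 and 7389 CPM in stromal cells. In all cells with a Gm49504 UMI it was at 25.9, 17.3, 16.2 and 44.5 CPM, and in leukocytes at 7.48, 7.32, 7.18 and 18.8. When only cancer cells in cancer-like clusters were counted, its level fell to 4.44, 3.68, 3.46 and 11.1 CPM, under that of the leukocytes of each library. The comparison with leukocytes changed sign with that choice, from 1.22 ± 0.12 (adjusted p = 5.71e-05) to −1.06 (adjusted p = 7.72e-05, edgeR). Col1a1 did not change sign in the same cells, at 64.6, 22.1, 35.8 and 56.1 CPM and a difference of 1.78 from leukocytes (adjusted p = 0.00068, edgeR). Both chains stood under their free RNA level in both classes. Col1a2 was at 4.13% to 9.46% of it in cancer-like clusters and 8.21% to 16% in leukocytes, and Col1a1 at 22.8% to 60.7% and 7.65% to 16.6%, and the part of free RNA in these differences was not tested.

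The ratio of the 2 type I transcripts was accordingly different between classes. For each 100 UMIs of Col1a1, stromal cells had 148, 168, 125 and 139.5 UMIs of Col1a2. All cells with a Gm49504 UMI had 33.3, 59.6, 37.7 and 56.9. Those in cancer-like clusters, a restriction made for this ratio after the data were seen, had 6.88, 16.7, 9.67 and 19.8. Leukocytes had 91.8, 98, 74.9 and 88.6, and free RNA between 62.9 and 92.1. Neither range of cancer cells overlapped that of the stromal cells, and the exact 95% interval of the highest cancer-like value, 18.3 to 21.5 in OE-MLKL 3, ended far below the lowest stromal value. The 43 cells with a Gm49504 UMI in stromal-like clusters had 149, 181, 157 and 127, and those in mixed clusters, which carried markers of more than 1 cell type, had 66.5, 125, 83.7 and 101, so that the low ratio was that of the cancer-like clusters and not of every cell with a Gm49504 UMI.

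**Figure D3:**
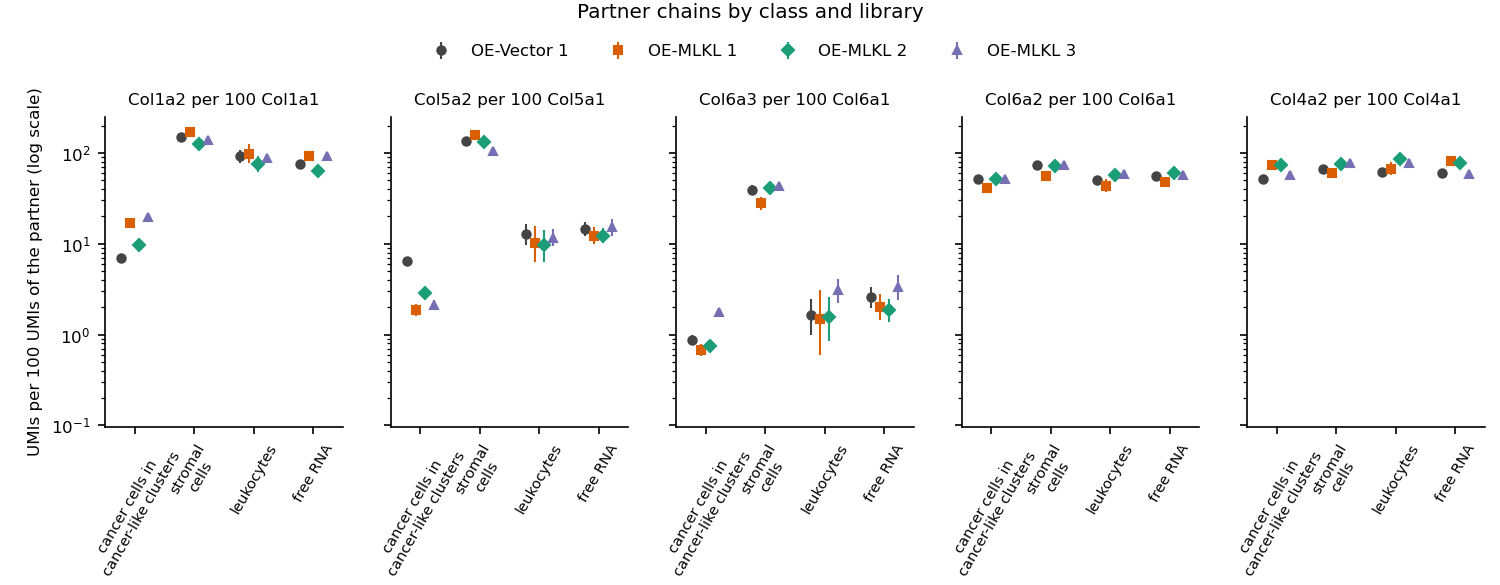
UMIs of 1 chain for each 100 UMIs of its partner chain (log axis) in cancer cells of cancer-like clusters, stromal cells, leukocytes and free RNA, for 5 pairs of chains that assemble together, with 1 point per library and exact 95% intervals. Col1a2, Col5a2 and Col6a3 were scarce beside their partners in these cancer cells (at most 19.8, 6.52 and 1.78 per 100; at most 59.6, 7.7 and 1.88 when all Gm49504 cells are counted), whereas Col6a2 and Col4a2 had ratios of the same order in cancer and stromal cells.

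Col3a1 (chr1:45311538-45349706, plus strand) encodes the homotrimeric type III collagen that forms fibrils together with type I. Its level was 7252, 2693, 3278 and 6711 CPM in stromal cells and 93, 76.1, 84.5 and 131 CPM in cancer cells. Leukocytes had 14.8, 12.9, 13 and 24.1 CPM of Col3a1. Cancer cells in cancer-like clusters had 71.7, 69.6, 75.4 and 102 CPM of Col3a1, above the leukocytes of each library but 46.5% to 74.4% of the free RNA level. The difference between cancer and stromal cells was −5.60 ± 0.20 (edgeR adjusted p = 5.72e-08) and that between cancer cells and leukocytes 2.44 ± 0.09 (edgeR adjusted p = 3.71e-07).

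Type V collagen, which nucleates type I fibrils and sets their diameter, was divided between the classes by chain. Col5a1 (chr2:27886425-28039514, plus strand) had 80.3% of its UMIs in cancer cells, at 167, 93.6, 110.1 and 207 CPM, and stood at 485, 247, 469 and 815 CPM in stromal cells. Its stromal excess was small for a fibrillar chain, at −1.75 ± 0.13 (edgeR adjusted p = 6.32e-06). Col5a2 (chr1:45374321-45503282, minus strand), the α2 chain that completes the common heterotrimer, was at 12.9, 3.01, 4.25 and 7.19 CPM in cancer cells. These levels were 22.6% to 64.4% of its free RNA level. In stromal cells Col5a2 was at 660.5, 387, 613 and 847 CPM, a difference of −6.69 ± 0.29 (edgeR adjusted p = 1.71e-07). For each 100 UMIs of Col5a1 there were 136, 157, 131 and 104 UMIs of Col5a2 in stromal cells, but 7.7, 3.22, 3.86 and 3.47 in all cancer cells and 6.52, 1.88, 2.87 and 2.12 in those of cancer-like clusters. These ranges did not overlap, and leukocytes (9.58 to 12.8) and free RNA (12.3 to 15.2) lay between them. Col5a3, a chain with a narrower tissue range, was at 243, 29.7, 80 and 123 CPM in stromal cells and 18.8, 1.6, 3.35 and 12.3 CPM in cancer cells.

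The sequences around the RefSeq transcription starts of Col1a2 and Col5a1 are shown because the class that held most of their UMIs differed. Stromal cells held 72.8% for the former and cancer cells 80.3% for the latter, although both chains stood at a higher level in stromal than in cancer cells. Each runs 5′ to 3′ on the coding strand from 250 bases before to 50 bases after the start (RefSeq, GRCm38.p6), at chr6:4505368-4505667 (plus strand) and chr2:27886175-27886474 (plus strand). Capitals mark matches on either strand to CCAAT, the core of the box of that name, to GGGCGG, the core of the GC box, or to TATAAA, the core of the TATA box, none of which contains another.
Col1a2: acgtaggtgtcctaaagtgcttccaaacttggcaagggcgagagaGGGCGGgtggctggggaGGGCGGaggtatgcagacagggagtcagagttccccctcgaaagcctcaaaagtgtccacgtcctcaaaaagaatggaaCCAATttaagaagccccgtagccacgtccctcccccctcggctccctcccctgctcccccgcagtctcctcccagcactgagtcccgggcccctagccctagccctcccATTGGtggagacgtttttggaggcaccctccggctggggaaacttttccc
Col5a1: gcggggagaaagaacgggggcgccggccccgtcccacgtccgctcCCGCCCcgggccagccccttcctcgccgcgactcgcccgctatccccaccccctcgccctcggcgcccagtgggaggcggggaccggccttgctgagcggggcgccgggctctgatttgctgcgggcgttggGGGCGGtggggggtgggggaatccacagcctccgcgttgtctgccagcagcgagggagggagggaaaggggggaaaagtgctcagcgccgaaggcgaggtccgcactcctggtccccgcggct
The Col1a2 window held 2 matches to CCAAT and 2 to GGGCGG, and the Col5a1 window held 2 to GGGCGG. Over the 38 windows of the 35 collagens with an entry, 23 (60.5%) held GGGCGG, 13 (34.2%) CCAAT and 5 (13.2%) TATAAA. Among all 32851 windows of the same length the shares were 35.7%, 37.4% and 13.6%. A match describes the letters only.

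Of the minor fibrillar chains, Col27a1, Col24a1 and Col11a1 had 82.8%, 54.3% and 72.4% of their UMIs in cancer cells. Each stood at a lower level there than in stromal cells. The differences were −1.32 ± 0.20, −5.23 ± 0.53 and −3.52 ± 0.72 (edgeR adjusted p = 0.000555, 4.04e-05 and 0.0031). Col27a1, a widely expressed relative of the major fibrillar chains, was at 12.5, 9.86, 9.58 and 13.6 CPM in cancer cells. Col24a1 was low in cancer cells, at 2.33, 0.0713, 0.214 and 1.62 CPM, and reached 97.3 CPM in the 47 cells of a Tagln-Cthrc1 fibroblast-like type. Col11a1, a fibril-nucleating chain of cartilage that is also known from cancer-associated fibroblasts, was under 1.1 CPM in the cancer cells of each library. In mural-like cells it was at 65.2 CPM with the libraries summed, although from 21 UMIs in 2 of the libraries. Its highest level in any class or type of 1 library, 169.5 CPM, was not in mural-like cells. It was in the 8 Tagln-Cthrc1 fibroblast-like cells of OE-MLKL 2.

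Col11a2 (chr17:34039437-34066685, plus strand), the second cartilage type XI chain, was the only fibrillar chain with most of its UMIs (68.5%) in leukocytes. Neutrophil-like cells carried it at 9.27, 15.4, 20.2 and 12 CPM, from 95, 73, 161 and 144 UMIs. Cancer cells had 0.507, 0.695, 0.597 and 0.666 CPM, and stromal cells 0, 1, 1 and 1 UMI. No neutrophil value overlapped a cancer value, and macrophage-like cells were between them at 2.4 CPM. For all leukocytes the difference was −3.28 ± 0.19 for cancer minus leukocytes (edgeR adjusted p = 3.32e-06). Whether these reads come from a transcript that encodes the whole chain was not tested.

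Type IV collagen, the sheet-forming collagen of basement membranes, was carried by cancer cells at a high level and by endothelial-like and mural-like cells at a higher one. Col4a1 (chr8:11198423-11312826, minus strand) and Col4a2 (chr8:11312805-11449287, plus strand) encode the common α1 and α2 chains. They are transcribed away from each other, and their gene models overlap at the 5′ ends. The starts were 21 bases apart, so the 2 windows share 78 bases, shown in capitals (RefSeq, GRCm38.p6, chr8:11312777-11313076 on the minus strand and chr8:11312555-11312854 on the plus strand, each 5′ to 3′ on its own coding strand). They are given because the starts lie close and both chains were higher in stromal than in cancer cells of every library. The chains did not change in proportion, with 51.2, 73.5, 73.7 and 57.3 UMIs of Col4a2 per 100 of Col4a1 in all cancer cells.
Col4a1: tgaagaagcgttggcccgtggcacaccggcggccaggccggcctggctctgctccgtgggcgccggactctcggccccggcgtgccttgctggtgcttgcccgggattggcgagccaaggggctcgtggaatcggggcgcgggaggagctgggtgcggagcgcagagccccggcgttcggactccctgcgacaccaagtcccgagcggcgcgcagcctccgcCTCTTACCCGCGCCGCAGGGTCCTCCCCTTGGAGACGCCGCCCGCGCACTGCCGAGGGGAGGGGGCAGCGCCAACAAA
Col4a2: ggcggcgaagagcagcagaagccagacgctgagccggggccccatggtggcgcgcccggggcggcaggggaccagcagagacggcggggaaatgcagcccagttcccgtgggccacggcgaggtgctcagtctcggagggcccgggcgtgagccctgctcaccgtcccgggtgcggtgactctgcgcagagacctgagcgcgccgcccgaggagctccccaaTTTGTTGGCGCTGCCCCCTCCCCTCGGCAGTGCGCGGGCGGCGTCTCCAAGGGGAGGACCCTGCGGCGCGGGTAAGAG

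Cancer cells had Col4a1 at 373, 177, 172 and 331 CPM, with OE-Vector 1 and OE-MLKL 3 high and OE-MLKL 1 and 2 low. Stromal cells as a whole had 1624, 330.1, 1507 and 1192 CPM of Col4a1. Within them, endothelial-like cells stood at 4271, 2608, 4499 and 5119 CPM, above the cancer cells of every library. Mural-like cells had 2178 CPM over all libraries, Dpt-Pi16 fibroblast-like cells 627 and mesothelial-like cells 145, the last under the 251 CPM of all cancer cells. The difference of cancer from stromal cells was −2.0 ± 0.28 (edgeR adjusted p = 0.00036) and from leukocytes 3.36 ± 0.10 (edgeR adjusted p = 2.94e-07). Despite the higher stromal level, 81.2% of the Col4a1 UMIs were in cancer cells and 6.41% in the 646 stromal cells.

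Col4a2 followed, at 191, 130.2, 127 and 189.9 CPM in cancer cells and 1088, 198, 1133 and 916 CPM in stromal cells. Its difference of cancer from stromal cells was −2.16 ± 0.33 (edgeR adjusted p = 0.00057). For each 100 UMIs of Col4a1 there were 51.3, 73.1, 73.5 and 56.6 UMIs of Col4a2 in cancer cells of cancer-like clusters and 67, 59.9, 75.1 and 76.8 in stromal cells. These ranges overlapped, in contrast to those of the type I and type V pairs.

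The tissue-restricted chains of type IV divided further. Col4a5 and Col4a6 (chrX:141475385-141689234, plus strand, and chrX:141165403-141474076, minus strand) encode the α5 and α6 chains, also placed head to head. Stromal cells carried Col4a5 at 53.9, 71.1, 44.8 and 117 CPM against 1.57, 0.695, 0.559 and 1.34 CPM in cancer cells (−6.14 ± 0.29, edgeR adjusted p = 2.90e-07). Col4a6 was at 10.1, 17.9, 10.6 and 26.4 CPM in stromal cells, and cancer cells in cancer-like clusters had 0, 3, 0 and 2 UMIs of it. With the libraries summed, both were highest in mesothelial-like cells (126 CPM of Col4a5, 32.7 CPM of Col4a6) and not in endothelial-like cells, where Col4a1 was highest. Mesothelial cells line the body cavities. Tagln-Cthrc1 and Cxcl13-Ctla2a fibroblast-like cells carried both chains as well, and in OE-MLKL 1 and 2 mesothelial-like cells were not the highest. Col4a4, known from the basement membrane of the kidney glomerulus, went the other way at a low level, with 1.77, 2.7, 2.28 and 1.95 CPM in cancer cells and 0, 1, 0 and 2 UMIs in stromal cells. Its difference from stromal cells was 2.38 ± 0.70 (edgeR adjusted p = 0.0202), and without OE-MLKL 1 or without OE-MLKL 2 the adjusted p was 0.0556 or 0.0584. Col4a3, which joins Col4a4 and Col4a5 in the glomerulus, had 10 UMIs in all.

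The short-chain collagens form open networks, type VIII in vessel walls and type X in growth-plate cartilage. Col8a1 (chr16:57624258-57754737, minus strand) had 82.6% of its UMIs in cancer cells, at 23.1, 8.63, 13.9 and 36 CPM, and 0.745, 0.454, 1.02 and 2.52 CPM in leukocytes. The highest level was in mural-like cells, at 875, 380.2, 164 and 1322 CPM from 5 to 21 cells per library. Mural cells wrap vessels, but this cluster also raised 5 of 10 fibroblast markers. The mural-like level exceeded that of the cancer cells in each library, and the difference of cancer from all stromal cells was −1.45 ± 0.21 (edgeR adjusted p = 0.000368). Col8a2, its partner, was at 0.0839 to 0.35 CPM in cancer cells. Col10a1 had 32 UMIs in all cells, 23 of them in OE-MLKL 3.

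Type VI collagen forms beaded microfilaments at the cell surface, each molecule joining an α1, an α2 and an α3 or related chain. Col6a1 (chr10:76708792-76726168, minus strand) was at 381, 259, 345 and 377 CPM in cancer cells and 751, 326, 515 and 753 CPM in stromal cells. Col6a2 (chr10:76595762-76623630, minus strand) was at 197, 107, 179 and 195 CPM in cancer cells and 554, 179, 367 and 553 CPM in stromal cells. Col6a3 (chr1:90765923-90843971, minus strand), the long α3 chain, was at 4, 1.89, 2.74 and 7.09 CPM in cancer cells but 296, 91.4, 210.2 and 329 CPM in stromal cells. Cancer cells differed from stromal cells by −0.73 ± 0.12 for the α1 chain (edgeR adjusted p = 0.00104) and −1.20 ± 0.13 for the α2 chain (edgeR adjusted p = 7.01e-05). For the α3 chain the difference was −5.90 ± 0.16 (edgeR adjusted p = 1.16e-08).

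For each 100 UMIs of Col6a1, all cancer cells had 1.05, 0.73, 0.794 and 1.88 UMIs of Col6a3, those in cancer-like clusters 0.866, 0.682, 0.754 and 1.78, and stromal cells 39.3, 28, 40.8 and 43.7. No library overlapped across the classes, and free RNA was at 1.86 to 3.3. For Col6a2 the same ratio was 51.3, 41.3, 51.9 and 51.7 in cancer-like clusters and 73.7, 55.1, 71.2 and 73.4 in stromal cells. Col6a5 (chr9:105856078-105960643, minus strand), an α3-related chain, was found mainly in some of the stromal types. It reached 115, 117, 332 and 1154 CPM in Dpt-Pi16 fibroblast-like cells and 195 CPM in mesothelial-like cells, and had no UMI in endothelial-like or mural-like cells. In cancer cells Col6a5 was at 0.386, 0.169, 0.429 and 1.52 CPM, and the difference from leukocytes did not pass the test (0.47 ± 0.30, edgeR adjusted p = 0.19). Cancer cells in cancer-like clusters had 0.183, 0.0615, 0.169 and 0.589 CPM of Col6a5, against 0.239, 0.151, 0.163 and 1.15 CPM in leukocytes, all under the free RNA. Col6a6 was at 24.9, 0.942, 1.76 and 12.5 CPM in stromal cells, highest in mesothelial-like cells (24.2 CPM), and Col6a4 had 11 UMIs.

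FACIT collagens bind to the surface of fibrils. Col12a1 (chr9:79598991-79718831, minus strand), the chain of type XII, had 77.2% of its UMIs in cancer cells, at 19.3, 15.9, 24.2 and 37.2 CPM, and was at 86.2, 85.7, 219 and 284 CPM in stromal cells. It reached 1092 CPM in mural-like cells and 681 CPM in Tagln-Cthrc1 fibroblast-like cells. Col16a1 was at 65.3, 30.6, 51 and 74.3 CPM in stromal cells and 3.36, 1.08, 1.37 and 2.61 CPM in cancer cells. Both chains were higher in stromal than in cancer cells, with differences of −2.69 ± 0.17 for Col12a1 (edgeR adjusted p = 2.27e-06) and −4.77 ± 0.20 for Col16a1 (edgeR adjusted p = 1.19e-07).

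Col14a1 (chr15:55307750-55520803, plus strand), the chain of type XIV, was carried by fibroblast-like and by macrophage-like cells. Dpt-Pi16 fibroblast-like cells carried it at 1238, 450.0, 640.1 and 1245 CPM. Macrophage-like cells carried it at 40.9, 21.8, 38.1 and 84.3 CPM, from 814, 262, 506 and 1838 UMIs, and cancer cells in cancer-like clusters at 1.62, 0.144, 0.551 and 1.36 CPM. The macrophage values were above the free RNA of each library (11.6, 4.44, 6.73 and 13.4 CPM) and above the neutrophil-like cells (0.211 to 3.34 CPM). By share, 57.2% of the Col14a1 UMIs were in leukocytes and 21% in stromal cells. Macrophage-like clusters were uneven, with 78.9 and 73.9 CPM in the highest and 6.79 and 0 CPM in the lowest, the last of 86 cells. The highest clusters came mostly from OE-Vector 1 and OE-MLKL 3 (647 and 430 of 1095 cells, and 984 and 2096 of 3135). Differences between such clusters cannot be told apart from differences between libraries. In the leukocytes as a whole Col1a1, which fibroblast-like cells also carry, stood at 7.65% to 16.6% of its free RNA level in the 4 libraries and Col14a1 at 192% to 353%. Col20a1, another FACIT chain, was 2.33 ± 0.31 log2 units lower in cancer cells than in leukocytes (edgeR adjusted p = 0.000271), from only 202 UMIs in all, and its leukocyte levels (0.649 to 1.14 CPM) were like its free RNA (0.481 to 1.32 CPM).

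Col7a1 (chr9:108953586-108984875, plus strand) encodes the chain of the anchoring fibrils that fix epithelia to the tissue beneath. It was at 17.6, 8.63, 12.9 and 16.7 CPM in cancer cells, 4.04, 1.88, 4.4 and 8.21 CPM in stromal cells and 2.39, 1.16, 1.75 and 2.72 CPM in leukocytes. Cancer cells were highest in every library, by 1.60 ± 0.26 over stromal cells (edgeR adjusted p = 0.000933) and 2.65 ± 0.12 over leukocytes (edgeR adjusted p = 9.48e-07). The free RNA held 17.6, 10.2, 12.5 and 14.7 CPM of Col7a1, above the stromal level of each library. It was close to the level of the cancer cells, which did not exceed it with the libraries summed.

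The multiplexins are basement-membrane collagens that carry heparan or chondroitin sulphate chains and release antiangiogenic fragments, endostatin in the case of Col18a1. Col18a1 (chr10:77052178-77166548, minus strand) had 153591 UMIs in cancer cells, at 629, 234, 305 and 524 CPM. Stromal cells had 256, 76.8, 279 and 232 CPM of Col18a1, in each library below the cancer cells, although endothelial-like cells (585 CPM) and mural-like cells (636 CPM) exceeded the 401 CPM of all cancer cells. The difference of cancer from stromal cells was 1.05 ± 0.20 (edgeR adjusted p = 0.00243), and 1.03 with an adjusted p of 0.0646 when the library block was left out. The study counts this gene among the epithelial transcripts of its cancer clusters; here it took no part in defining them.

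Col15a1 (chr4:47208161-47313167, plus strand), the other multiplexin, had 39.7% of its UMIs in leukocytes and 35.7% in stromal cells. The leukocyte share was 51%, 29.4%, 21.1% and 33.6% by library and the stromal share 31%, 35.3%, 47.2% and 36.8%, so that leukocytes held more in OE-Vector 1 and stromal cells more in the other libraries. It was at 348 CPM in endothelial-like cells and 348 CPM in Dpt-Pi16 fibroblast-like cells, and at 2.24, 0.294, 1.09 and 2.36 CPM in cancer cells. In neutrophil-like cells it was at 51.5, 1.27, 3.88 and 13.4 CPM, from 528, 6, 31 and 160 UMIs. OE-Vector 1 was far above the others. The free RNA held 10.1, 1.2, 2.64 and 4.46 CPM of Col15a1, which OE-MLKL 1 barely exceeded. Of these 725 UMIs, 389 were in 1 cluster at 115 CPM, of which 2287 of 2526 cells were from OE-Vector 1, while other neutrophil-like clusters ranged from 0.663 to 20.1 CPM. A cluster held mostly by 1 library cannot be told apart from that library.

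Col28a1 (chr6:7997808-8192617, minus strand) is a collagen with von Willebrand factor A domains known from peripheral nerve. With the libraries summed, it had the highest share in cancer cells of the 32 collagens that reached 10 CPM, 90.9%. In OE-MLKL 1, where Col18a1 had 89.9%, the share of Col28a1 was 88.1%. Its level was 14, 0.927, 1.81 and 18.1 CPM, high in OE-Vector 1 and OE-MLKL 3 and low in OE-MLKL 1 and 2 with no value between. In stromal cells it was at 5.39, 3.77, 3.52 and 7.34 CPM (0.41 ± 0.57, edgeR adjusted p = 0.594). The transmembrane chains were scarce in these tumours. Col13a1 had 64 UMIs, 64.1% of them in stromal cells, and reached 13.5, 24.1, 107 and 2.26 CPM in endothelial-like cells from 6, 3, 28 and 1 UMIs. Col23a1 was under 1 CPM in cancer cells, with 13, 3, 0 and 15 UMIs in dendritic cell-like cells, and Col17a1, the hemidesmosomal collagen of epithelia, had 181 UMIs.

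**Figure D4:**
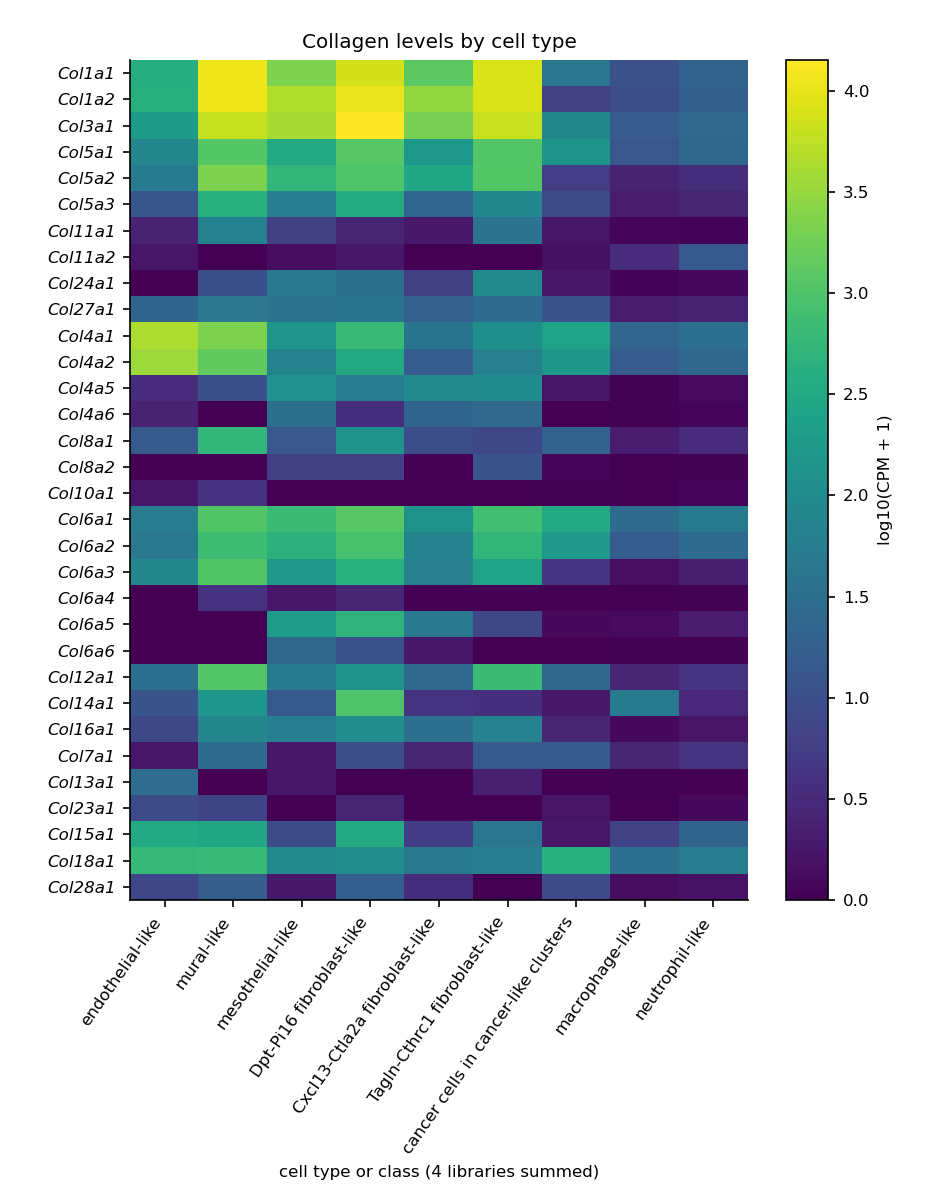
Heat map of the level (log10 of CPM + 1, 4 libraries summed) of 32 collagens in cancer cells and in the named stromal and leukocyte types. Mural-like and fibroblast-like cells hold Col1a1, Col1a2 and Col3a1 at up to 14202 CPM, endothelial-like cells hold Col4a1 and Col4a2 at 4449 and 3439.6 CPM, and the leukocyte columns are at most 54.2 CPM (Col18a1 in neutrophil-like cells).

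The 646 stromal cells fell into 6 types that differed in their collagens, each checked against its markers. Endothelial-like cells (131, with 9 of 9 endothelial and 3 of 8 mural markers raised) were a type IV and Col15a1 type, with 0.832%, 0.552%, 0.944% and 1.41% collagen UMIs. Their Col1a1 was 4.49, 48.1, 49.6 and 1082 CPM, of which the last value was from OE-MLKL 3 alone. Col15a1 and type IV were not particular to them. Dpt-Pi16 fibroblast-like cells carried Col15a1 at a like level, and mural-like cells also carried Col4a1. Mural-like cells (40, 8 of 8 mural and 5 of 10 fibroblast markers) came from a cluster with 18.6% doublet calls. They devoted 4.76%, 4.37%, 3.79% and 4.28% of their UMIs to collagens and combined fibrillar chains (Col1a1 11168 CPM) with Col4a1 and Col6a3 (1077 CPM). Dpt-Pi16 fibroblast-like cells (167, 10 of 10 fibroblast markers) had the highest Col3a1 (14202 CPM) and 4.85%, 1.74%, 2.03% and 5.67% collagen UMIs. In mesothelial-like cells (162, 6 of 6 mesothelial, 6 of 10 fibroblast and 4 of 14 cancer-cell markers), Col1a2 (4735 CPM) and Col3a1 (4102 CPM) were accompanied by Col4a5, Col4a6 and Col6a6. Col4a5 and Col4a6 were not particular to them, as the Tagln-Cthrc1 and Cxcl13-Ctla2a types also carried both. The type named after Tagln and Cthrc1 (47, 3 of 10 fibroblast and 3 of 6 mesothelial markers) had 3.05%, 2.1%, 3.86% and 3.11% collagen UMIs, with Col1a1 at 8377 CPM and Col12a1. Its markers thus do not tell a fibroblast-like from a mesothelial-like name. A further type named after Cxcl13 and Ctla2a (99, 4 of 10 fibroblast markers) occurred in OE-MLKL 1 (83 cells) and OE-MLKL 2 (16 cells) only, with 0.736% and 0.762% collagen UMIs. The mix of types differed between libraries, and its part in the levels of the summed stromal cells was not tested. No test of the labelled groups was made in stromal cells.

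Genes that modify, fold, secrete and cross-link collagen followed the collagens in part. Against leukocytes, 20 of 26 tested were higher in cancer cells (39.8% of all genes) and 2 lower (36.4%), with a median difference of 1.95 against 0.06 for all genes. The lower ones were Plod1 (−1.62), a lysyl hydroxylase, and P3h3 (−1.91), a prolyl 3-hydroxylase family member. Against stromal cells, 20 of 28 were lower in cancer cells (22.6% of all genes) and 1 higher (P3h2, 1.72, beside 24.9%), with a median of −0.95 against 0.12 for all genes. Serpinh1, the collagen chaperone Hsp47, was at 1596, 254, 455 and 879 CPM in stromal cells, 40.4, 15.9, 13.6 and 36.9 CPM in cancer cells and 5.51, 1.46, 1.67 and 4.39 CPM in leukocytes. It was thus ordered like Col1a1 in every library, with −4.74 for cancer minus stromal cells (edgeR adjusted p = 1.46e-07). The difference from stromal cells was −5.67 for Lox, which cross-links fibrils, and −7.41 for Adamts2, which trims the amino-terminal propeptide. Sparc, a collagen-binding matrix protein, was at 750.3, 525, 738 and 641 CPM in cancer cells and 7752, 4300.2, 6573 and 7035 CPM in stromal cells.

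Of the collagen receptors, 4 of 8 tested were higher in cancer cells than in leukocytes and 2 lower, near the 39.8% and 36.4% of all genes. Against stromal cells 7 of 9 were lower in cancer cells, beside 22.6% of all genes. Ddr2, a receptor tyrosine kinase for fibrillar collagen, was at 91, 39.8, 59.8 and 124 CPM in cancer cells and 5.48, 2.83, 5.22 and 9.11 CPM in leukocytes. Lair1, the inhibitory collagen receptor of leukocytes, was at 161, 101, 186 and 252 CPM in leukocytes and 8.45, 2.89, 8.05 and 17.5 CPM in cancer cells, the largest leukocyte excess of the list (−4.57).

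Between the labelled groups, no collagen differed in cancer cells under the test. OE-MLKL and OE-Vector were compared with edgeR's quasi-likelihood test on UMIs of cancer cells summed per library, 3 against 1. None of 32 collagens was called in either direction, beside 0.00571% of 17525 genes (1 gene). At an unadjusted p under 0.05 there were 2 collagens with edgeR (Col5a2 and Col18a1), 4 with DESeq2 and 3 with limma-voom, none of which was called after adjustment. Over all 17525 genes the same counts were 849, 1004 and 843. The median difference was −0.43 over the 32 collagens and 0.03 over all genes, and 7 of the 32 differences were above 0. Without OE-MLKL 3 this median was −0.72 with 5 of 31 above 0, and without OE-MLKL 1 it was −0.36 with 10 of 32 above 0. The collagen share of UMIs in cancer cells was nearly equal in OE-Vector 1 (0.228%) and OE-MLKL 3 (0.225%), with OE-MLKL 1 and 2 below both.

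Col18a1 was at 629 CPM in OE-Vector 1 (exact 95% Poisson interval 624 to 635, counting error only) and averaged 354 ± 151 CPM (SD, n = 3) over the libraries of the OE-MLKL label. The labelled difference was −0.96 ± 0.40 (edgeR adjusted p = 0.985). The value of OE-MLKL 3 (524 CPM) lay nearer to that of OE-Vector 1 than to those of OE-MLKL 1 (234 CPM) and OE-MLKL 2 (305 CPM). Col4a1 was at 373 CPM in OE-Vector 1 and averaged 227 ± 90.5 CPM (SD, n = 3) over OE-MLKL 1 to 3, with a difference of −0.85 ± 0.37 (edgeR adjusted p = 0.985). Col5a2 had the smallest p-value of the collagens, with 12.9 CPM in OE-Vector 1 and a mean of 4.82 ± 2.15 CPM (SD, n = 3) over OE-MLKL 1 to 3 (−1.55 ± 0.43, edgeR adjusted p = 0.942). In the cancer cells of each library Col5a2 stood under its free RNA level, at 64.4%, 22.6%, 30% and 38.3% of it. Col1a1 differed by −0.78 ± 0.42, Col6a1 by −0.33 ± 0.32, Col5a1 by −0.42 ± 0.39 and Col3a1 by −0.06 ± 0.31, all with an edgeR adjusted p of 0.985 or higher. Col12a1 was among the 7 with a positive difference (0.28 ± 0.40).

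These results turned on OE-MLKL 3. Without it, 7 of 31 collagens passed the threshold as lower under the OE-MLKL label, beside 463 of 17122 genes (2.7%). These were Col28a1 (−3.37), Col5a3 (−2.94), Col24a1 (−4.03), Col4a1 (−1.10), Col5a2 (−1.83), Col18a1 (−1.23) and Col1a1 (−1.12). That fit sets 2 libraries against 1, leaves out the OE-MLKL library with the collagen share nearest to OE-Vector 1, and takes all its spread from OE-MLKL 1 and 2, so it is given for the values and not as evidence of a difference with the label. OE-MLKL 3 also shared with OE-Vector 1 the higher depth per cancer cell (20990 and 26974 UMIs, against 12470 and 12513) and the lower share of cancer cells, and the part of these in the collagen levels was not tested.

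**Figure D5:**
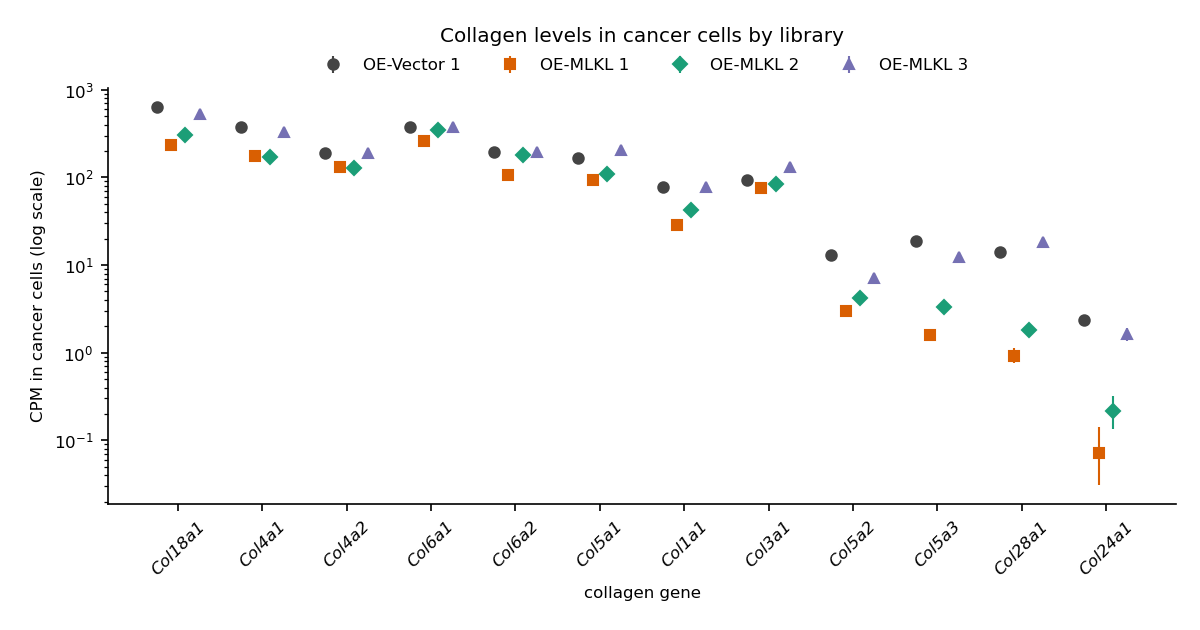
Levels of 12 collagens in the cancer cells of each library in CPM (log axis), with exact 95% Poisson intervals that cover counting error only. OE-Vector 1 and OE-MLKL 3 lie above OE-MLKL 1 and 2 for all 12 genes, by a wide margin for Col28a1 (14 and 18.1 against 0.927 and 1.81 CPM), while Col6a1 stays between 259 and 381 CPM.

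In leukocytes 27 collagens were tested between the labelled groups and none was called, nor was any of 15820 genes (0%, with 1074 genes at an unadjusted p under 0.05 and 135 called by DESeq2). Col15a1 alone had an unadjusted p under 0.05, at 18.4 CPM in OE-Vector 1 and 1.51, 4.08 and 7.26 CPM in OE-MLKL 1, 2 and 3 (−2.20 ± 0.62, edgeR adjusted p = 0.624). OE-Vector 1 lay above every OE-MLKL library. A single library can lie outside the others by chance, so this is not read as a difference with the label. Without OE-MLKL 3 the difference of Col15a1 was −2.74 and passed the threshold, beside 394 genes lower of 15034 (2.62%). That fit sets 2 libraries against 1, with the same limit as in cancer cells, and is given for the values only. The neutrophil-like cluster at 115 CPM, held mostly by OE-Vector 1, is part of this class. Col14a1 differed by 0.17 ± 0.59 and Col11a2 by 0.35 ± 0.41, with adjusted p of 0.969 and 0.889 by edgeR. The median over the 27 collagens was −0.07, against 0.04 for all genes, with 12 differences above 0. Its sign turned on single libraries, at 0.04 without OE-MLKL 1, 0.01 without OE-MLKL 2 and −0.29 (4 of 23 above 0) without OE-MLKL 3, and it was 0.03 by library size alone, so no direction is read from it.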

How the data were processed

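The authors aligned 10x Genomics 3′ v2 reads to mm10 with Cell Ranger and deposited unfiltered UMI counts per gene and barcode. The version is 7.1.0 in the matrix headers and 2.1.1 in the submitters' processing notes, and the study's methods name yet another, so the version used is uncertain. From these deposited counts, barcodes with at least 500 UMIs, over 200 genes, under 10% mitochondrial and at most 5% haemoglobin UMIs were kept. Cells were clustered without collagen genes (scanpy 1.11.5, leidenalg 0.10.2; 2000 variable genes, 30 components, 20 neighbours, resolution 2.0), giving 42 clusters and 7 sub-clusters. A cluster was named where at least 3 fixed markers were found in 10% or more of its cells and raised 4-fold over the median across all remaining clusters. Where a cluster passed for more than 1 type, its name or the label mixed was set by hand. The 11363 calls of simulated-doublet scoring stayed in, 62 of them in stromal cells and 4417 among the 4947 cells of mixed clusters. Removing them, an alternative, left 16291 of the 21091 cancer cells. UMIs were summed per library and class and tested with edgeR 4.0.16 (quasi-likelihood, TMM, filterByExpr, Benjamini-Hochberg at 0.05). Cancer cells and leukocytes or stromal cells of 1 library come from the same tumour, so the library was a block. Their deviations from the class means correlated with r = 0.64 to 0.79 for leukocytes and 0.40 to 0.72 for stromal cells. Alternatives used DESeq2 1.42.0, limma 3.58.1, other filters and left-out libraries, and the test script was tested on simulated data. Free RNA was the sum of barcodes of at most 100 UMIs. Intervals are exact at 95%. Gene positions come from GENCODE for GRCm38, promoter windows from RefSeq (GRCm38.p6). All 44 collagens were accounted for, and those at 10 CPM in some class and library or called in a test were described with values. The members, gene lists and tests were chosen with earlier results of these data known. Python 3.11.15, numpy 2.4.6, scipy 1.17.1, matplotlib 3.10.9 and R 4.3.3 were used.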

Additional observations from a re-analysis of the deposited data

How the results depend on the processing

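No paired analysis was possible because the labelled groups share only replicate number 1 and OE-Vector has a single matrix here, so a replicate block applied only between classes of the same library. With no replicate block, 22 collagens were higher and 4 lower in cancer cells than in leukocytes, as with it, and the count of genes called was 9526 instead of 12165. Against stromal cells the same change gave 2 collagens higher and 25 lower, 5151 genes called instead of 7338, and lost Col18a1 (1.03, adjusted p = 0.0646 by edgeR). Leaving out 1 library gave 0 to 7 collagens lower in the cancer cells labelled OE-MLKL and 37 to 670 genes called, and in leukocytes 0 to 1 collagens lower and 14 to 594 genes called. In cancer cells the main count of 1 gene called became 0 by library size alone, 96 with DESeq2, 0 with limma-voom and 3 with at least 3 UMIs of Gm49504. In leukocytes the main count of 0 became 12 without a filter and 135 with DESeq2. Directions reversed for Col14a1 in leukocytes without OE-MLKL 3 (−0.42 instead of 0.17, with a highest value of 0.47 when OE-MLKL 1 was left out), for Col11a2 in leukocytes of at least 1000 UMIs (−0.04 instead of 0.35), and for Col1a2 between cancer cells in cancer-like clusters and leukocytes (−1.06). With at least 3 UMIs of Gm49504, Col1a2 differed from leukocytes by 0.57 (edgeR adjusted p = 0.109). The collagen share of OE-Vector 1 was 0.226% of cancer-cell UMIs with at least 3 UMIs of Gm49504 and 0.224% in cancer-like clusters only, 0.0239% in leukocytes of at least 1000 UMIs, and 2.39% in stromal cells without doublet calls. Restricting cancer cells to cancer-like clusters moved the mean of Col1a2 per 100 Col1a1 UMIs over libraries to 13.3, an alternative chosen after seeing the data. Library size alone moved the median difference of all genes between cancer cells and leukocytes from 0.06 to 0.20 and the split of calls to 7264 higher and 5189 lower from 6352 and 5813. Of the 807 alternative values for single collagens between classes, 802 kept their direction and side of the threshold. Depth limits the stromal types, some of which hold under 10 cells in a library.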
